A study of Mus musculus with 2 samples.

Results

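The AP-1 and small Maf factors are basic leucine zipper (bZIP) transcription factors, which bind DNA only as pairs. Fos proteins pair with Jun proteins to form AP-1, which binds the sequence TGACTCA and close variants, and Jun proteins can also pair with each other or with ATF proteins. Small Maf proteins have a bZIP domain but no activation domain of their own. They repress when paired with each other and activate when paired with a CNC protein such as NRF2, on an extended site called MARE. Several Fos and Jun genes are immediate early genes, transcribed within minutes of serum, stretch or stress, and AP-1 is known in cartilage for driving matrix-degrading enzymes and for its part in endochondral growth.

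The members were fixed by name as *Fos*, *Fosb*, *Fosl1*, *Fosl2*, *Jun*, *Junb*, *Jund*, *Maff*, *Mafg* and *Mafk*. Every probe set annotated to one of these 10 genes alone was taken, which gave 15 of the 45037 probe sets on the array other than controls. Each probe set is made of short oligonucleotides that hybridize near the 3′ end of a transcript. SFZ cells, from the superficial zone of articular cartilage of the femur and tibia, were compared with costal chondrocytes (CC) from ribs. Both came from ICR mice at postnatal day 4 with no other treatment and were cultured in DMEM with 10% FBS. There was 1 array per cell type, so no difference below has a replicate check and no test was run. The sources used here give neither the number of animals behind each array nor the time in culture.

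The values are MAS5 signals, linear intensities as the authors deposited them. Background was taken as the 95th percentile of 83 probe sets for chemosensory receptor genes, at 28.2 for SFZ cells and 26.2 for CC. Of the 15 member probe sets, 11 were above it on both arrays, 2 on 1 array and 2 on neither. The CC array was brighter as a whole. The median log2 SFZ/CC ratio of probe sets above background on both arrays was -0.15 as deposited, 0.03 once the arrays were scaled to equal medians and 0.08 once they were quantile normalized. As a measure of RNA integrity, the 3′ over 5′ quotient of the control probe sets for *Actb* was 1.35 in SFZ cells, against 1.24 in CC, and that for *Gapdh* was 0.836 in SFZ cells, against 0.850 in CC.

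Markers of other cell types differed between the arrays. Here and throughout, a probe set or gene passed in the cell type where it was brighter if its signal there was over 100 and more than 2 times that of the other, which are the thresholds stated by the study for SFZ cells and their mirror image for CC. In RNA from a whole culture, fewer cells that express a gene and less of its RNA per cell cannot be told apart. All 7 skeletal muscle markers passed in CC, with a summed signal of 147 in SFZ cells, against 26990 in CC, and *Myog* and *Myod1* were under background in SFZ cells. All 4 adipocyte markers measured passed in CC, with sums of 89.1 in SFZ cells, against 7382 in CC, as did all 5 fibroblast markers, with sums of 536 in SFZ cells, against 7720 in CC. Of 6 macrophage and leukocyte markers 3 passed in CC, with sums of 421 in SFZ cells, against 1887 in CC, and 1 did so after quantile normalization or with 64 added. No endothelial marker passed, with sums of 40.0 in SFZ cells, against 112 in CC, and the red blood cell genes were under background on both arrays. Of 8 chondrocyte markers 1 passed in SFZ cells and none in CC, with sums of 68053 in SFZ cells, against 53896 in CC. *Prg4*, the lubricin gene that marks the superficial zone, was at 323 in SFZ cells, against 73.6 in CC, while *Gdf5*, another marker of the zone, was at 93.1 in SFZ cells, against 74.2 in CC. *Erg*, on the same list, was at 113 in SFZ cells, against 65.2 in CC, and *Cilp* was under background on both arrays. Of the 4 of these 5 markers above background, only *Vcam1* ran the other way, at 35.7 in SFZ cells, against 354 in CC. The median log2 ratio of these 4 was 0.56. The part of these other cell types in the ratios of *Fos*, *Fosl1*, *Jun*, *Junb*, *Mafk* and the AP-1 targets was not tested.

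The members moved in both directions. *Fos*, *Fosl1*, *Jun* and *Junb* had SFZ signals below their CC signals by close to the same factor, with SFZ/CC ratios from 0.355 to 0.493 on the 5 probe sets that passed, whereas *Mafk* was higher in SFZ cells at a ratio of 2.13. *Jund* and *Mafg* were brighter in SFZ cells without reaching a ratio of 2, and *Fosl2* was nearly equal. Of the member probe sets, 1 passed in SFZ cells, where 0.779% of all 45037 probe sets did, and 5 passed in CC, where 3.58% did. Restricted to probe sets with a signal over 100 on at least 1 array, 1 of 10 member probe sets passed in SFZ cells, against 2.24% of 15695, and 5 of 10 passed in CC, against 10.3%. With the brightest probe set standing for each gene, 1 of 8 member genes over 100 passed in SFZ cells, against 2.38% of 8986 genes, and 4 of 8 passed in CC, against 11.0%. The median log2 ratio of the 9 member genes above background was -1.02, against -0.18 over 12464 genes, and since the members ran both ways it describes neither direction.

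The folds in both directions were close to 2, and the counts depended on the treatment of the signals. Those of *Fosl1* (2.03) and *Mafk* (2.13) were closer than those of *Fos* (2.37), *Junb* (2.36) and *Jun* (2.26 and 2.82). After scaling to equal medians, *Mafk* passed in SFZ cells, where 1.28% of all 45037 probe sets did. In CC, where 2.7% did, *Fos* and *Junb* passed on their brightest probe sets and *Jun* on its dimmer one only, at 0.404. After quantile normalization *Mafk* passed in SFZ cells, against 1.47% of all probe sets. No member gene passed in CC on its brightest probe set, against 2.43%, and the dimmer probe set of *Jun* passed at 0.429. With 64 added to both signals *Mafk* no longer passed, at a ratio of 1.80, and *Fos* and *Jun* passed in CC, where the shares of all probe sets were 0.462% in SFZ cells and 2.26% in CC. The shares in these settings are over probe sets of any signal, so they are not like for like with calls of member genes. Every member ratio that had passed kept its direction under these treatments.

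**Figure D1:**
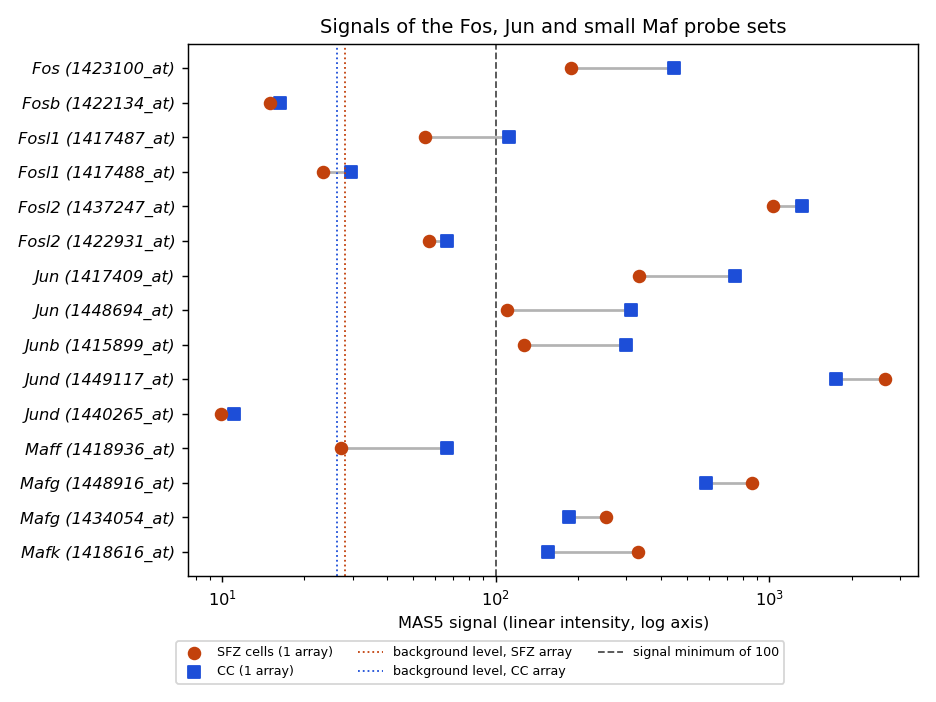
MAS5 signals of the 15 member probe sets on a log axis, with 1 SFZ array (circles) and 1 CC array (squares) joined by a line. Dotted lines show background (28.2 for SFZ cells, 26.2 for CC) and a dashed line shows the 100 threshold. The SFZ circle lies left of the CC square for *Fos*, *Fosl1*, *Fosl2*, *Jun*, *Junb* and *Maff*, and right of it for *Mafg*, *Mafk* and the brighter probe set of *Jund*.

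In the Fos family, *Fos*, which encodes the immediate early partner of the Jun proteins, had a signal of 188 in SFZ cells, against 447 in CC, on its only probe set. The SFZ/CC ratio was 0.422, and 7.52% of the 15695 probe sets with a signal over 100 had a lower one. *Fosl1*, encoding Fra-1, a Fos protein that lacks the activation domain of c-Fos, was at 55.2 in SFZ cells, against 112 in CC. Its ratio of 0.493 and its CC signal both lay just past the thresholds. The second *Fosl1* probe set was dim, at 23.4 in SFZ cells, under background, and 29.5 in CC, and it gave a ratio of 0.794. *Fosl2* encodes Fra-2, which mouse chondrocytes need for hypertrophic differentiation. It was at 1031 in SFZ cells, against 1317 in CC on the brighter probe set, a ratio of 0.783, and on the other at 57.0 in SFZ cells, against 66.4 in CC, a ratio of 0.859. Both ratios were close to the median ratio of 0.875 over the 15695 probe sets. After quantile normalization the brighter probe set was at 0.880 and the dim one at 1.06. Only the dim one thus changed direction, and *Fosl2* was nearly equal on both. *Fosb*, a further immediate early member, was at 15.0 in SFZ cells, against 16.2 in CC, under background on both arrays, and gives no ratio.

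In the Jun family both probe sets of *Jun*, the founding member of AP-1, passed in CC. The brighter was at 332 in SFZ cells, against 751 in CC, a ratio of 0.443, and the other was at 110 in SFZ cells, against 311 in CC, a ratio of 0.355. The log2 ratios of these probe sets differed by 0.32. Over 2321 genes with exactly 2 probe sets above background on both arrays and over 100, the median difference of this kind was 0.17 and 90% of pairs differed by no more than 0.54. This spread covers disagreement between probe sets on the same arrays and not the spread between cultures. *Junb*, a Jun protein that mice need for normal endochondral bone formation, was at 127 in SFZ cells, against 300.3 in CC, a ratio of 0.424. The log2 ratios of *Fos*, *Jun* and *Junb* on their brightest probe sets lay within 0.07 of each other, at -1.25, -1.18 and -1.24.

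*Jund* encodes the Jun protein that most cells make without stimulation. Unlike the other Jun genes it was brighter in SFZ cells, at 2649 in SFZ cells, against 1745 in CC, a ratio of 1.52 that exceeded those of 94.2% of the 15695 probe sets. Its second probe set was under background on both arrays, at 9.93 in SFZ cells, against 11.0 in CC. The *Jund* ratio was 3.43 times that of *Jun*, 3.58 times that of *Junb* and 3.60 times that of *Fos*. A constant factor between the arrays cancels in such a quotient, so these values do not change with scaling to equal medians or trimmed means. With 1 array per cell type they have no replicate error to be set against.

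The small Maf genes ran in both directions. *Mafk* was at 332 in SFZ cells, against 156 in CC, and 98.1% of the 15695 probe sets had a ratio below its 2.13. *Mafg*, the small Maf best known from platelet formation, was at 866 in SFZ cells, against 589 in CC on the brighter probe set and on the other at 252 in SFZ cells, against 185 in CC. Its ratios of 1.47 and 1.36 were higher than those of 93.5% and 91.1% of the same probe sets and differed by 0.11 on the log2 scale. *Maff*, the small Maf that is induced by cytokines and stress, ran the other way, at 27.2 in SFZ cells, against 66.1 in CC. The SFZ signal was under background, so *Maff* was at least 2.35-fold lower in SFZ cells, and it did not count as passing because the CC signal was under 100. With signals raised to background, the *Mafk* ratio was at least 5 times that of *Maff*.

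**Figure D2:**
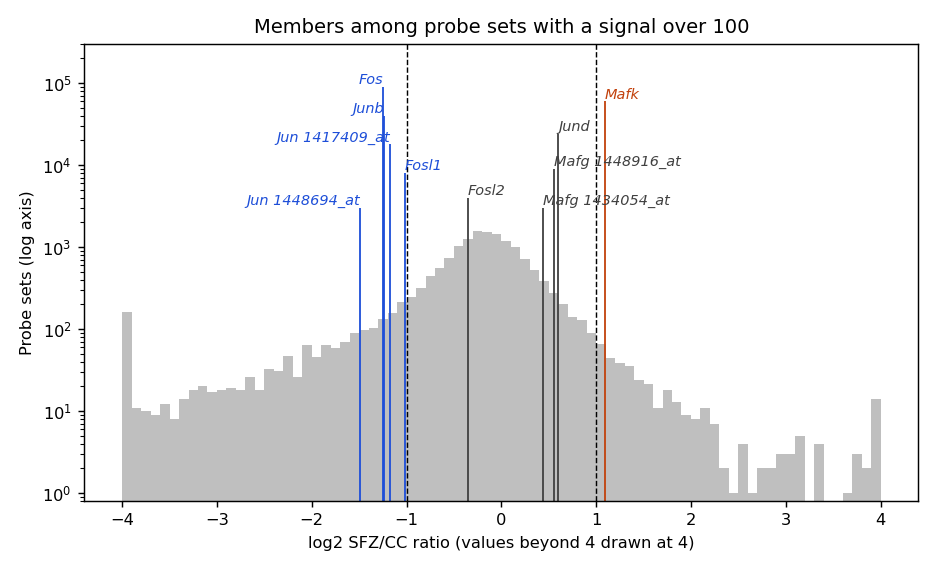
Distribution of log2 SFZ/CC ratios over the 15695 probe sets with a signal over 100 on at least 1 array (grey bars, log axis), 1 array per cell type, with the 10 member probe sets among them as vertical lines. Dashed lines show ratios of 2 toward SFZ cells and toward CC. The lines of *Fos*, *Fosl1*, *Jun* and *Junb* lie left of the lower dashed line, and that of *Mafk* lies right of the upper one at 1.09. Of the 15695 probe sets, 98.1% have a lower ratio than *Mafk* and 5.79% a lower one than the dimmer *Jun* probe set.

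**Figure D3:**
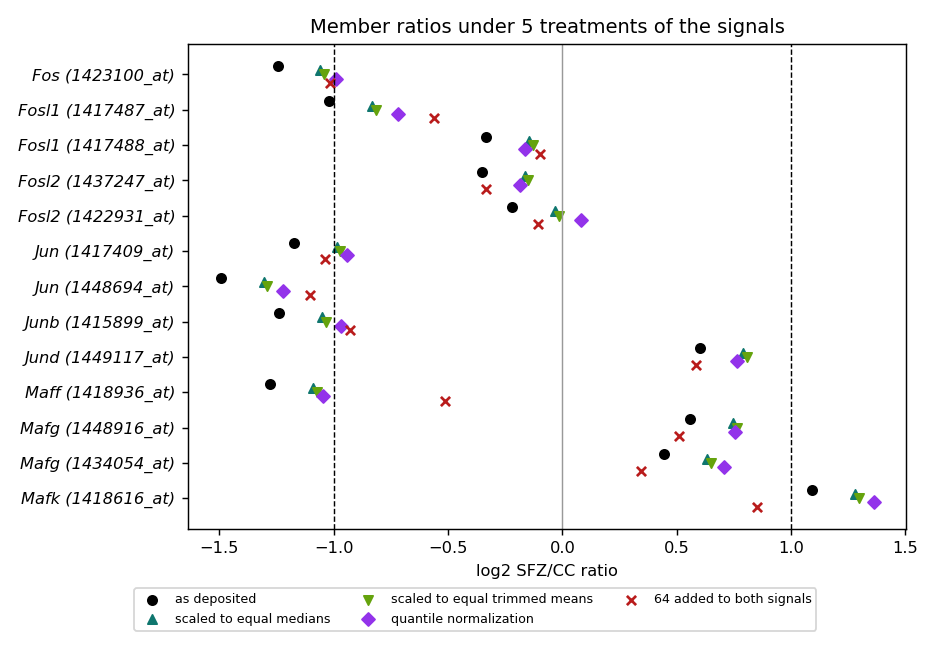
Log2 SFZ/CC ratios of the 13 member probe sets above background on at least 1 array, under 5 treatments of the same signals, with 1 array per cell type. Dashed lines show ratios of 2 toward SFZ cells and toward CC. Each scaling shifts the members toward SFZ cells, which takes the brighter *Jun* probe set to 0.504 after scaling to equal medians, while adding 64 draws the dim *Maff* to 0.701.

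Promoter sequence from RefSeq (GRCm38.p6) is shown for the 3 immediate early members that passed in CC with a signal over 200 there and for *Mafk*, which passed in SFZ cells. It covers the 250 bases before the annotated start, 5′ to 3′ on the strand of the gene, with the motif matches described next in capitals. The windows are chr12:85473640-85473889 on the plus strand for *Fos*, chr4:95052223-95052472 on the minus strand for *Jun*, chr8:84978749-84978998 on the minus strand for *Junb* and chr5:139791286-139791535 on the plus strand for *Mafk*.
Fos: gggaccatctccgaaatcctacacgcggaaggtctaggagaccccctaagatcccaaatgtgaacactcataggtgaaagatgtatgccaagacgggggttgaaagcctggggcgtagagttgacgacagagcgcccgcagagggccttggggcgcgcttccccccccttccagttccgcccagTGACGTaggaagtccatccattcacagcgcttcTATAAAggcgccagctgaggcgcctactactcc
Jun: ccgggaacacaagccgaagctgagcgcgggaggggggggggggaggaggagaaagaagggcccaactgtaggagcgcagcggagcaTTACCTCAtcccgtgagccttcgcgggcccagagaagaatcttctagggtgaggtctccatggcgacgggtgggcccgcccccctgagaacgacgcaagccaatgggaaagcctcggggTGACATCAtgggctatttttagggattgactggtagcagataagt
Junb: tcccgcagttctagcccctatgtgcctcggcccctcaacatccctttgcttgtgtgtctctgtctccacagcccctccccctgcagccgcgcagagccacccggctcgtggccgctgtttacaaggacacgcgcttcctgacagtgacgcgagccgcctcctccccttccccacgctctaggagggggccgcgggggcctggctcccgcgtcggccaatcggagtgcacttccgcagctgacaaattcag
Mafk: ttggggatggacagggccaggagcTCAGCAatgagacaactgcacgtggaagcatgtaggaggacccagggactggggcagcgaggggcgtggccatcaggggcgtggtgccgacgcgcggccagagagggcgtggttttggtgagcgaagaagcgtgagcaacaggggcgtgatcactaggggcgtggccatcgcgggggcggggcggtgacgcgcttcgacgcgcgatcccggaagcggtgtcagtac

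Motifs were searched on both strands in those 250 bases for the 9 member genes with an entry, which have 11 annotated starts, 3 of them of *Maff*. *Fosl1* was not among them. The AP-1 consensus TGACTCA was in none of the 11, against 4.46% of 32851 promoters. The variant TGACATCA, through which Jun and ATF dimers are known to act on *Jun* itself, stood 45 bases before the start of *Jun* and 45 before a start of *Maff*, and 2.93% of all promoters held it. A further AP-1-like sequence of *Jun*, TTACCTCA, began 164 bases before its start and was in 0.728% of promoters. TGACGT, the first part of the cAMP response element TGACGTCA, was in *Fos*, *Maff* and *Mafg*, against 6.47% of promoters, and the full element was in *Maff* alone, against 1.55%. TATAAA was in *Fos* alone, against 12.4%. TGCTGA, an arm of a MARE, was in *Mafk* alone, against 16.1%. The CArG box, the site of serum response factor, was in none, against 1.47%. A match is a stretch of letters and not a measured binding site, and the known serum response element of *Fos* lies upstream of this window. The GC content had a median of 64% over the 11 member promoters and 52.4% over all.

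Of the partners of the members, *Atf3* was the 1 gene that passed. Of 8 ATF, JDP and BATF genes measured, 4 had a signal over 100. Of these, 1 passed in SFZ cells and 0 in CC, beside 2.38% and 11.0% of the 8986 genes over 100. *Atf3*, a stress-induced partner of Jun proteins, was at 1213 in SFZ cells, against 280 in CC, a ratio of 4.33, and thus ran against *Jun*, *Junb* and *Fos*. The list had a median log2 ratio of 0.03. Of 6 CNC and Bach genes, the partners of small Maf proteins, none passed in either direction, and the median log2 ratio of the 4 above background was -0.44. *Nfe2l1*, the brightest of the list, which encodes the CNC protein NRF1, was at 1511 in SFZ cells, against 955 in CC, a ratio of 1.58. *Nfe2l2*, *Bach1* and *Bach2* ran the other way, at ratios of 0.864, 0.625 and 0.582. Of the large Maf genes, 2 of 4 were measured and neither passed. *Maf* was at 2091 in SFZ cells, against 2543 in CC on its brightest probe set, a ratio of 0.822.

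Among the genes upstream of the members, 5 passed, each of them in CC, and 3 of these were MAP kinase phosphatase genes. Of all 8986 genes over 100, 2.38% passed in SFZ cells and 11.0% in CC. The lists of MAP kinases, serum response factor genes, phosphatases and regulators held 8, 6, 7 and 5 genes over 100. Of 14 MAP kinase and MAP kinase kinase genes measured, 0 passed in SFZ cells and 1 in CC. This was *Map2k4*, a kinase of the JNK and p38 pathways, at 116 in SFZ cells, against 239 in CC, a ratio of 0.485. Of 7 genes for serum response factor, its cofactors and CREB, 0 passed in SFZ cells and 1 in CC. *Srf*, the gene of that factor, was at 93.2 in SFZ cells, against 219 in CC, a ratio of 0.425, which is near those of *Fos* and *Junb*. *Map2k4* did not pass under any of the 3 scalings or with 64 added, and *Srf* did not pass after quantile normalization or with 64 added. Of 10 MAP kinase phosphatase genes, 0 passed in SFZ cells and 3 in CC, with a median log2 ratio of -0.78. *Dusp1*, an immediate early phosphatase of p38 and JNK, was at 1128 in SFZ cells, against 2737 in CC, a ratio of 0.412. *Dusp5* was at 13.3 in SFZ cells, against 131 in CC and *Dusp10* at 24.6 in SFZ cells, against 104 in CC. Their SFZ signals were under background, so they were at least 4.64-fold and 3.68-fold lower in SFZ cells. *Dusp10* was lost under each of the 3 scalings and with 64 added, which left 2 phosphatase genes in CC. Of 5 genes that regulate Jun and Fos protein levels, 0 passed in either direction, and *Cop1*, encoding a ubiquitin ligase subunit that targets Jun, was at 2814 in SFZ cells, against 2433 in CC, a ratio of 1.16.

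Of 17 genes known as AP-1 targets, 11 had a signal over 100, and of these 0 passed in SFZ cells and 6 passed in CC, beside 2.38% and 11.0% of the 8986 genes over 100. *Ptgs2* was lost under each of the 3 scalings, which left 5 in CC, and *Ptgs2* and *Mmp3* were lost with 64 added to both signals, which left 4. The median log2 ratio of the 15 above background was -0.79, with signals raised to background. *Mmp13*, encoding the collagenase of hypertrophic and osteoarthritic cartilage, was at 239 in SFZ cells, against 3784 in CC, a ratio of 0.0631. *Il6*, encoding interleukin-6, was at 7.05 in SFZ cells, under background, and 199 in CC, and was at least 7.06-fold lower in SFZ cells. *Ccl2*, a chemokine gene, was at 40.4 in SFZ cells, against 453 in CC, a ratio of 0.0891. *Ccnd1*, encoding cyclin D1, was at 293 in SFZ cells, against 1116 in CC, a ratio of 0.262. The remaining calls were *Mmp3*, encoding stromelysin-1, at a ratio of 0.302 and the cyclooxygenase-2 gene *Ptgs2* at 0.489. Other targets on the list were brighter in SFZ cells without passing, such as *Vegfa* at 830 in SFZ cells, against 549 in CC. *Hbegf* was at 419 in SFZ cells, against 282 in CC and *Plaur* at 343 in SFZ cells, against 232 in CC.

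Of 10 genes known as targets of CNC and small Maf pairs, 9 had a signal over 100. Of these, 1 passed in SFZ cells and 0 passed in CC, beside 2.38% and 11.0% of the 8986 genes over 100. The median log2 ratio of the 10 was -0.01. *Hmox1*, the heme oxygenase gene repressed by Bach1 and small Maf proteins, was at 2997 in SFZ cells, against 1139 in CC, a ratio of 2.63. The glutathione synthesis genes *Gclc* and *Gclm* had ratios of 1.07 and 1.03, and *Nqo1*, a quinone reductase gene, had one of 0.646. Of 16 other immediate early genes measured, 12 had a signal over 100. In this list 1 passed in SFZ cells, which was *Atf3* again, and 4 passed in CC, with the same counts after each scaling. The shares of the 8986 genes over 100 were again 2.38% and 11.0% as deposited. *Egr1* was at 604 in SFZ cells, against 3092 in CC, a ratio of 0.195, and *Nr4a1* at 71.1 in SFZ cells, against 459 in CC, a ratio of 0.155. *Ccn1* and *Dusp1*, the latter also counted among the phosphatases, were the other calls, at ratios of 0.350 and 0.412. The other genes of this list over 100 did not pass. Among them *Myc*, *Ier5*, *Ier3* and *Nr4a2* had ratios of 0.983, 0.921, 1.13 and 0.990. *Ier2*, *Btg2* and *Zfp36* had lower ones, at 0.663, 0.620 and 0.610. The median log2 ratio of the 15 genes of the list above background was -0.59, with signals raised to background.

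**Figure D4:**
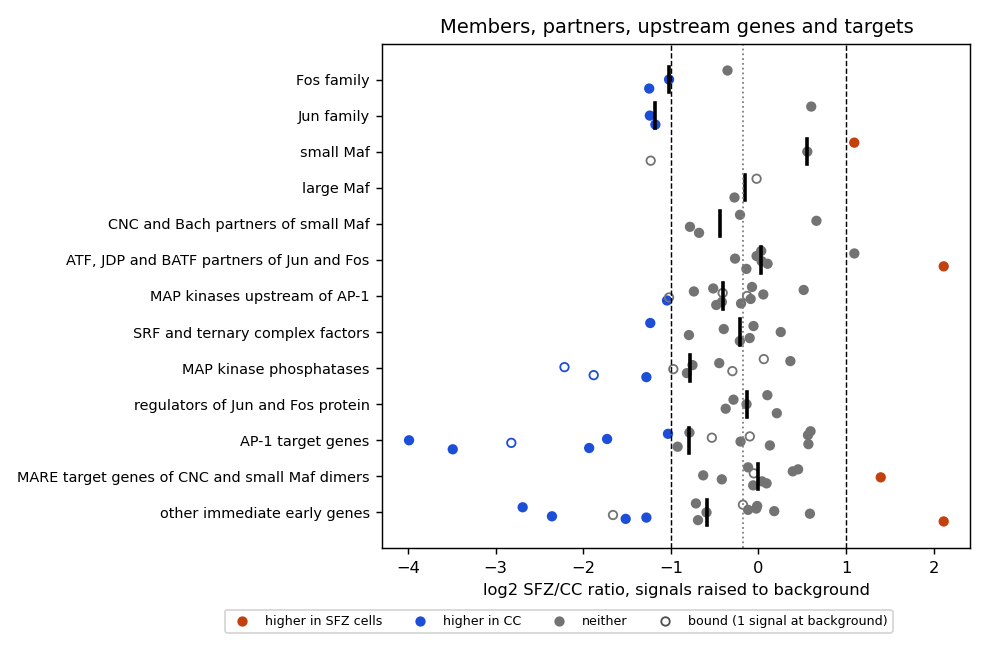
Log2 SFZ/CC ratios, 1 array per cell type, of the members and of lists of partners, upstream genes and targets, with signals raised to background. Points are genes over background on 1 or both arrays, open points are bounds, bars are list medians, dashed lines mark a ratio of 2 and the dotted line marks the median of -0.18 over 12464 genes. The Fos and Jun bars lie at -1.02 and -1.18, the small Maf bar at 0.56, and the AP-1 target bar at -0.79.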

How the data were processed

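Total RNA (100 ng) from each cell type was labelled and hybridized to 1 Affymetrix Mouse Genome 430 2.0 array. The authors deposited MAS5 signals, a linear intensity per probe set, which were used without further scaling. The MAS5 version and scaling target were not given in the sources used here. Gene symbols came from the platform annotation. Of 45037 probe sets other than 64 controls, 34945 carried 1 symbol, and all 15 member probe sets matched RefSeq (GRCm38.p6) by Entrez identifier with no change of symbol. The members, gene lists and thresholds were chosen with earlier results of these data known, so no list is independent support. All member probe sets were named. The rule for each other list allowed the 2 highest and 2 lowest ratios past the thresholds in a direction, or else the brightest gene. From the markers it also allowed *Prg4*, *Gdf5* and *Myog*. It further allowed *Col2a1*, *Acan*, *Sox9*, *Actc1*, *Fabp4* and the control *Actb*, whose signals are not given above. *Nfe2l2*, *Bach1*, *Bach2*, *Ccl2*, *Ccnd1*, *Vegfa*, *Hbegf*, *Plaur*, *Gclc*, *Gclm*, *Nqo1*, *Myc*, *Ier5* and *Ier3* were added after their values were seen. So were *Erg*, *Cilp*, *Nr4a2*, *Ier2*, *Btg2* and *Zfp36*. Each gene was represented by its brightest probe set on the mean log2 scale. Where the dimmer signal was under background, the fold is a bound against the background level. The counting was tested on simulated arrays. The planted changes were larger than any member fold that passed, so the test says nothing of calls near a ratio of 2. Alternatives were 3 scalings, 2 treatments of low signals, other thresholds, other rules for probe sets and another background level. The number of arrays limits the precision. Python 3.11.15, numpy 2.4.6, pandas 2.3.3 and matplotlib 3.10.9 were used.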

Additional observations from a re-analysis of the deposited data

How the results depend on the processing

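No paired analysis was possible because there was 1 array per cell type and no test was run. No member ratio that passed the thresholds turned round under any scaling or treatment of low signals. A count was taken as close to that as deposited if within 1.5 times, and the median log2 ratio if within 0.1. The counts and medians that were not close are given next, and only the remaining ones were close. The 5 member probe sets and 4 member genes higher in CC became 3 and 2 after scaling to equal medians, 3 and 2 after scaling to equal trimmed means, 1 and 0 under quantile normalization, 3 and 2 where 64 was added to each signal, and 0 and 0 at a ratio over 3. The remaining probe set after quantile normalization was the dimmer one of *Jun*, at 0.429, while *Fos* was at 0.504, *Junb* at 0.511 and the brighter one of *Jun* at 0.520. The 1 member probe set and 1 member gene higher in SFZ cells became 2 and 2 at a ratio over 1.5, where *Jund* joined *Mafk*, 0 and 0 at a ratio over 3, and 0 and 0 with 64 added, where *Mafk* was at 1.80. The median log2 ratio of -1.02 over the member genes became -0.83 and -0.82 after scaling to equal medians and trimmed means, -0.72 under quantile normalization, -0.51 where 64 was added and -0.54 where each gene took the median of its probe sets. Changed thresholds alter the counts by their construction. At a ratio over 1.5, 2.11% of all 45037 probe sets passed in SFZ cells and 7.24% in CC. At a ratio over 3, the shares were 0.28% in SFZ cells and 1.85% in CC. After scaling to equal trimmed means they were 1.32% in SFZ cells and 2.64% in CC. The cause of the changes under the scalings was not tested. *Fosb*, *Maff* and the second probe sets of *Fosl1* and *Jund* were at or near background, which limits what these arrays tell of them.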
